A study of Mus musculus with 30 samples.

Results

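The opioid receptor family and the nociceptin system were followed in ribosome-associated mRNA from the nucleus accumbens of female mice. The family was taken as 5 genes of 55335 in the count table: the mu, delta and kappa opioid receptors (Oprm1, Oprd1, Oprk1), the nociceptin receptor (Oprl1) and prepronociceptin (Pnoc), the precursor of that receptor's peptide. They were chosen by name, through Ensembl identifiers and GENCODE release M21, and not by a cut on their counts. Earlier results of these data were known when they were chosen. All 5 passed the filter on low counts. The mice carried RiboTag, a hemagglutinin-tagged ribosomal protein that Cre switches on, abbreviated RT in the labels. In D1-Cre-RT mice the drive came from the dopamine D1 receptor gene and the labelled cells are D1 medium spiny neurons. In A2A-Cre-RT mice it came from the adenosine A2A receptor gene, which marks the medium spiny neurons of the D2 class, and these libraries are called D2 here. Each class had 5 Control libraries, 5 from mice that chronic witness defeat stress (CWDS) left Resilient and 5 from mice it left Susceptible, as sorted by social interaction scores. Every library pooled 4 mice with like scores, so each value is a mean over animals, and the tissue was frozen 24 h after the social interaction test. The labels give neither the age nor the strain of the mice, and whether pools shared litters or days is not stated, so a p-value measures only the spread between pools.

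Opioid receptors are G protein-coupled receptors of the Gi/o class: once bound, they lower cyclic AMP, open inwardly rectifying potassium channels and close presynaptic calcium channels. Enkephalins, made from Penk, act mainly on the delta and mu receptors, dynorphins, made from Pdyn, act on the kappa receptor, and nociceptin acts on Oprl1 and only weakly on the classical receptors. In the accumbens, Pdyn is a marker of D1 neurons and Penk of D2 neurons, and kappa receptor signalling there has long been studied in stress and aversion.

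The peptides and receptors pair off partly through the first residue of the peptide. The stretches below are the coding sequence where a peptide begins in the enkephalin and nociceptin precursors, read on the minus strand of GRCm38 from the GENCODE M21 annotation, each 51 bases long. They are shown because their first codons encode different residues. Capitals mark the first 4 codons of a peptide, and the lower-case codons before them encode a pair of basic residues, where processing enzymes cut. The Penk stretch also holds a further tyrosine start after another basic pair, which is left in lower case.
Penk: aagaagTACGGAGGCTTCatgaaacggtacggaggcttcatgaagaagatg
Pnoc: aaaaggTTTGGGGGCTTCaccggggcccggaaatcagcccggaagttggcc
The Penk stretch lies at chr4:4134304-4134354 in exon 2 of 2 and the Pnoc stretch at chr14:65404848-65404898 in exon 3 of 4. In Penk the first capital codon is one for tyrosine, the residue that classical opioid peptides need. In Pnoc it is one for phenylalanine. The coding sequence held such a tyrosine start 7 times in Penk and 0 times in Pnoc, which held the phenylalanine form once.

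Coordinates are for GRCm38. Oprm1 (ENSMUSG00000000766) spans chr10:6758506-7038198 on the plus strand, and 96 of its exon bases, 1.2%, overlap Ipcef1 on the other strand. Oprd1 (ENSMUSG00000050511) lies on the minus strand at chr4:132110726-132144486. Oprk1 (ENSMUSG00000025905) lies on the plus strand at chr1:5588466-5606131, and Oprl1 (ENSMUSG00000027584) on the plus strand at chr2:181715016-181720985. Pnoc (ENSMUSG00000045731) lies on the minus strand at chr14:65400673-65425472. Gm10945 also lies within Oprm1 on the other strand and shares 0 exon bases, and no other member overlapped an annotated gene. Whether counting used strand is not given in the sources used here, so reads of Ipcef1 in the shared bases cannot be told from those of Oprm1.

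Gene counts per library ran from 28996168 to 65882152. Values are CPM, the counts of a gene relative to the size of its library, with sizes adjusted by TMM, and a count of 0 in a library allows up to 3 counts, 0.0430 to 0.304 CPM, for counting error only. A pair of libraries, D2 Susceptible replicates 1 and 2, had counts for only 15822 and 16525 genes, against 19440 to 22375 in the other 28. In D1 Susceptible replicate 1 a single feature, Gm42418, took 54.9% of the gene counts. D2 Resilient replicate 5 had the highest summed D1 markers of any D2 library. Results that rest on these 4 libraries are given with and without them. Of the 7 D1 markers 6 were higher in D1 libraries, and 5 of the 6 D2 markers were used, the other not being analysed here, of which 5 were higher in D2 (edgeR quasi-likelihood test, adjusted p under 0.05, D1 against D2 over the 3 conditions). The summed D1 markers were 1736 to 2609 CPM in D1 and 281 to 1858 CPM in D2.

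Per kilobase of exon, Oprl1 had the highest level of the 5 genes in both classes and Oprm1 the lowest. In the 15 D1 libraries the means were 10.7 ± 0.881 CPM per kb (SD, n = 15) for Oprl1, 4.94 ± 0.721 for Oprk1, 2.04 ± 0.555 for Pnoc, 1.33 ± 0.673 for Oprd1 and 0.216 ± 0.355 for Oprm1. In the 15 D2 libraries they were 6.94 ± 1.36 for Oprl1, 3.93 ± 0.746 for Oprk1, 2.27 ± 0.995 for Oprd1, 0.373 ± 0.373 for Pnoc and 0.0881 ± 0.0928 for Oprm1. The order of Oprd1 and Pnoc is thus turned round between the classes. Within D1, Oprl1 stood above Oprk1, Oprk1 above Pnoc and Oprd1 above Oprm1 in 15 of 15 libraries, and Pnoc above Oprd1 in 12 of 15. Within D2, Oprd1 stood above Pnoc in 15 of 15 libraries, Oprl1 above Oprk1 and Oprk1 above Oprd1 in 13 of 15, and Pnoc above Oprm1 in 12 of 15. With the longest transcript as the length the order was the same in both classes, but the step from Pnoc to Oprm1 in D2 then held in only 9 of 15 libraries. The classical peptide precursors lay far higher on the same scale: Penk was 911 ± 290.0 CPM per kb in D1 and 5373 ± 1114 in D2, and Pdyn 200.2 ± 26.5 in D1 and 31.8 ± 40.0 in D2.

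**Figure D1:**
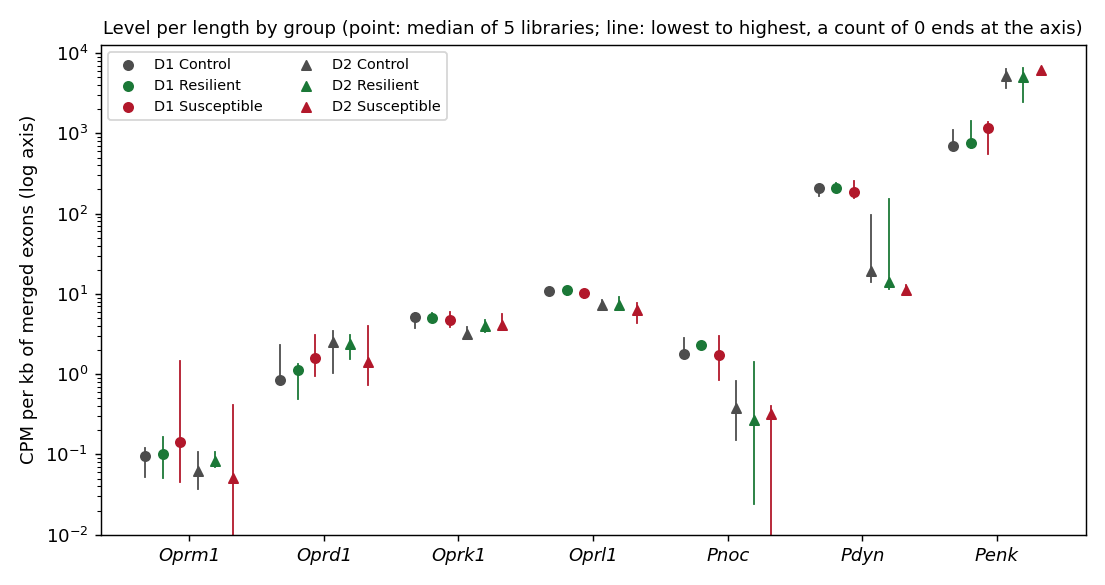
Level per kilobase of merged exons (CPM per kb, log axis) of the 5 genes and of the precursors Pdyn and Penk in the 6 groups. Points are medians of 5 libraries and lines run from the lowest to the highest library, with a library at 0 ending at the axis. Oprl1 leads and Oprm1 trails among the 5 genes in both classes, and Pnoc is the member set furthest apart between D1 (circles) and D2 (triangles).

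Of the summed level per kb of merged exons of the 4 receptors, Oprl1 made up 62.2% ± 4.15 (SD, n = 15) in D1 and 52.2% ± 6.08 in D2. Oprk1 gave 28.8% ± 3.92 in D1 and 30.4% ± 8.47 in D2. Oprd1 gave 7.73% ± 3.82 in D1 and 16.7% ± 6.33 in D2, and Oprm1 1.26% ± 2.08 and 0.707% ± 0.893. With the longest transcript as the length, Oprl1 gave 52.6% ± 4.70 in D1 and 44.9% ± 6.55 in D2, and Oprk1 39.2% ± 4.75 and 41.5% ± 8.58. On that scale Oprd1 gave 5.41% ± 2.76 in D1 and 12% ± 4.94 in D2, and Oprm1 2.81% ± 4.39 and 1.60% ± 1.79. In D2 Susceptible the longest transcript put Oprk1, at 48.7% ± 11.8 (SD, n = 5), ahead of Oprl1, at 38.5% ± 7.37, where merged exons gave 37.4% and 46.5%. Not divided by length, Oprk1 led in both classes, at 48.8% ± 5.08 (SD, n = 15) in D1 and 50.1% ± 8.77 in D2. Oprl1 then gave 43.5% ± 3.99 in D1 and 36.2% ± 5.98 in D2. The gap between Oprl1 and Oprk1, and their order, therefore depended on whether the level was divided by length and on the length used. These shares describe mRNA on ribosomes and are not receptor protein.

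The first comparison set the classes against each other. Over the 3 conditions, Oprl1, Pnoc and Oprk1 were higher in D1 and Oprd1 was higher in D2, while Oprm1 did not pass. That is 4 of 5 members called at an adjusted p under 0.05 by edgeR's quasi-likelihood test with Benjamini-Hochberg adjustment, 3 higher and 1 lower in D1, beside 29.3% of all 19368 genes tested (13.8% higher and 15.5% lower). The median log2 difference of the 5 was 0.63, and that of all genes tested was 0.00. In bulk libraries, fewer cells of a type and less RNA per cell cannot be told apart. In Control libraries alone 2 of 5 were called, against 8.30% of all genes, in Resilient 1 of 5 against 6.65%, and in Susceptible 2 of 5 against 23.9%. Without D2 Susceptible replicates 1 and 2, edgeR called 5 of 5 over the conditions (beside 6131 of 20427 genes), 3 in Control (15.3%), 4 in Resilient (11.3%) and 3 in Susceptible (10.4%). Without the 4 libraries the counts were again 5, 3, 4 and 3, beside 30.6%, 16.2%, 12.5% and 10.6%. With voom and quality weights 4 members were called in each, beside 39.8% over the conditions, 28.4% in Control, 17.6% in Resilient and 17.0% in Susceptible.

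**Figure D2:**
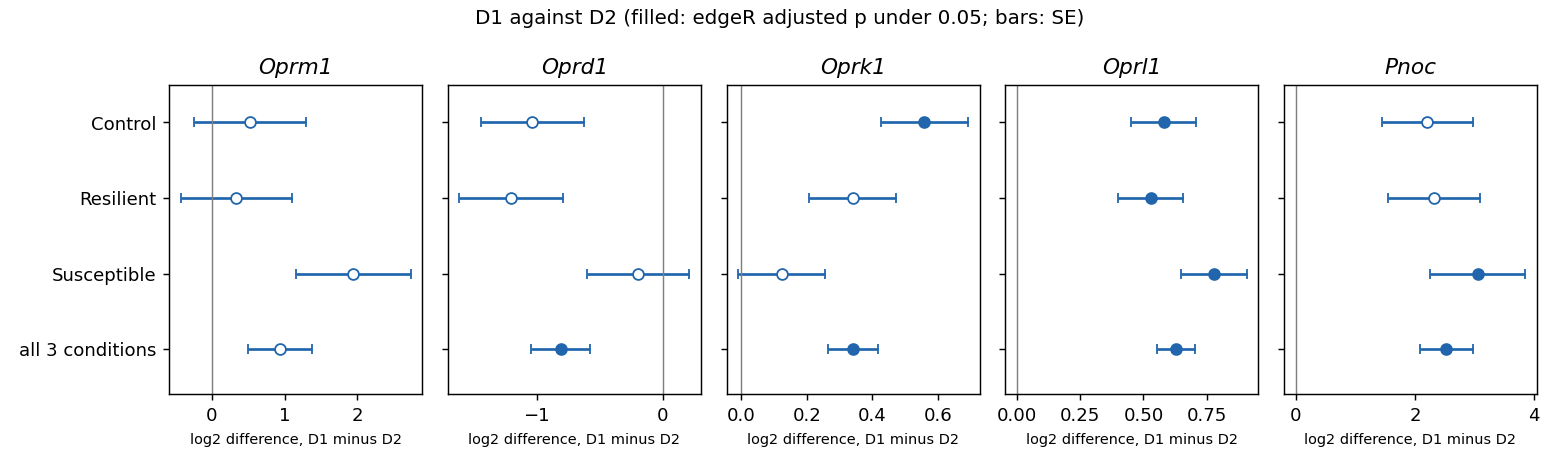
Log2 difference, D1 minus D2, of each gene in Control, Resilient and Susceptible libraries and over all 3 conditions. Bars are standard errors and filled points have an edgeR adjusted p under 0.05. Oprl1 is filled in all 4 rows, while Oprm1 is filled in none.

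Oprl1, the nociceptin receptor, gave the steadiest class difference of the 5 genes, called in every condition. In D1 Control its libraries held 37.4, 42.2, 38.7, 42.4 and 40.7 CPM, in D1 Resilient 41.5, 45.7, 41.7, 43.9 and 36.2, and in D1 Susceptible 32.9, 41.4, 36.7, 38.6 and 41.0. In D2 Control they held 27.3, 24.4, 28.0, 23.6 and 31.5 CPM, in D2 Resilient 32.8, 26.2, 27.0, 24.7 and 34.2, and in D2 Susceptible 16.1, 16.6, 29.0, 23.6 and 26.0. All D1 libraries lay above all D2 libraries within each condition, and over the conditions 14 of 15 D1 libraries lay above every D2 library. How many of all genes separate the classes in this way was not counted. Such separation, here and for the genes below, therefore says nothing particular about a gene. The log2 difference was 0.63 (SE 0.0742, edgeR adjusted p 7.10e-08), 1.55-fold. By condition it was 0.58 in Control (SE 0.128, adjusted p 0.00312), 0.53 in Resilient (SE 0.128, adjusted p 0.00711) and 0.78 in Susceptible (SE 0.129, adjusted p 7.39e-05). Leaving out each library in turn kept all 4 of these calls. The lowest D2 values came from D2 Susceptible replicates 1 and 2, and without this pair the Susceptible difference was 0.57 (edgeR adjusted p 0.000697).

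Pnoc, which encodes nociceptin, had the largest class difference of the 5 genes. Its D1 Control libraries held 4.99, 6.08, 3.79, 3.77 and 3.86 CPM, its D1 Resilient libraries 4.93, 4.70, 5.27, 5.14 and 4.60, and its D1 Susceptible libraries 1.83, 3.70, 2.74, 6.45 and 4.25. Its D2 Control libraries held 0.436, 0.326, 1.47, 0.822 and 1.79 CPM, its D2 Resilient libraries 0.210, 0.0517, 0.577, 1.10 and 3.02, and its D2 Susceptible libraries 0, 0, 0.684, 0.858 and 0.721. No D2 library reached a D1 library of its own condition. D2 values rest on few reads, from 0 to 150 counts a library, and the counts of 0 in D2 Susceptible replicates 1 and 2 allow up to 0.0644 and 0.0543 CPM. The log2 difference over the 3 conditions was 2.53 (SE 0.448, edgeR adjusted p 6.85e-05), 5.76-fold.

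By condition, Pnoc differed by a log2 of 3.05 in Susceptible (SE 0.798, edgeR adjusted p 0.00672), 2.21 in Control (SE 0.763, adjusted p 0.0730) and 2.32 in Resilient (SE 0.766, adjusted p 0.0695), so only the first was called. The Susceptible call was lost when only the groups compared were fitted (3.07, edgeR adjusted p 0.103), and the Control and Resilient differences were called by DESeq2 (adjusted p 0.0484 and 0.0494), which called 11.4% of all genes in Control and 7.41% in Resilient. With the replicate number as a block they were also called, at 2.67 (edgeR adjusted p 0.0232) and 2.94 (adjusted p 0.0148). That fit called 1497 of all genes in Control and 1230 in Resilient. Replicate numbers did not pair the libraries, so the block was arbitrary and adds no separate support. Without D2 Resilient replicate 5 the Resilient difference was 3.35 (edgeR adjusted p 0.00695). Whether the difference varied between conditions was tested and is given with the stress comparisons.

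The D2 libraries that held most Pnoc also held most of the D1 marker Pdyn. The 4 D2 libraries highest in Pnoc were Resilient replicate 5, Control replicate 5, Control replicate 3 and Resilient replicate 4, and the same 4 in the same order were highest in Pdyn, at 434, 275, 155 and 89.4 CPM, and in Drd1, the D1 receptor gene, at 414, 247, 147 and 95.2 CPM. They were also the 4 lowest in Penk, at 4038 to 7989 CPM. The other 11 D2 libraries held 30.9 to 56.2 CPM of Pdyn. The part of D1 RNA in the D2 value of Pnoc was not tested.

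**Figure D3:**
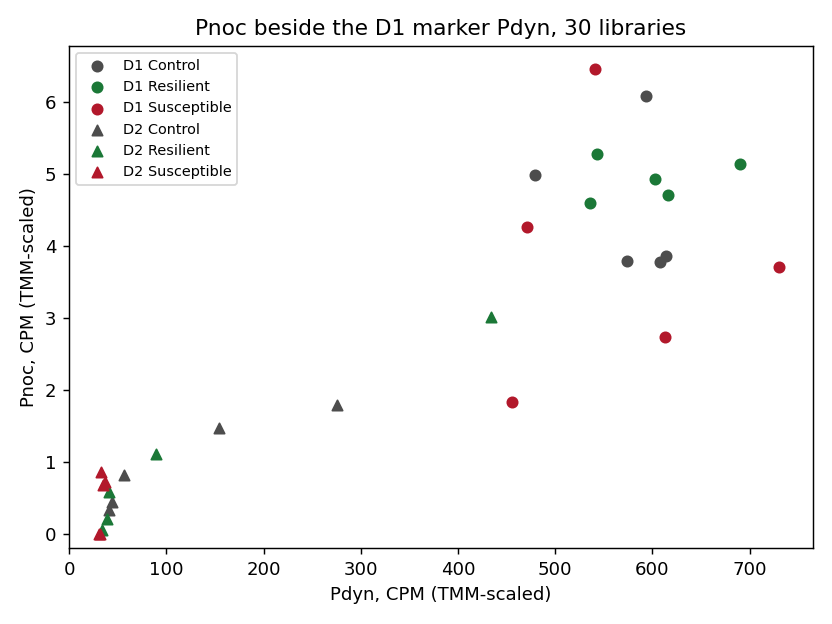
Pnoc (y axis, CPM) beside the D1 marker Pdyn (x axis, CPM) in each of the 30 libraries, coloured by condition, with circles for D1 and triangles for D2. The D2 library furthest to the right, Resilient replicate 5, has 434 CPM of Pdyn and the highest Pnoc of the D2 libraries, 3.02 CPM.

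Markers of other cells also differed between the classes. Of 12 GABAergic interneuron markers, 11 were higher in D1 and 1, Th, was higher in D2 (edgeR adjusted p under 0.05), and the summed level was 511 to 717 CPM in D1 and 165 to 499 in D2. All 5 glutamatergic neuron markers were higher in D1 (483 to 925 against 142 to 526 CPM), as were 2 of 6 cholinergic markers (8.45 to 19.4 against 3.44 to 21.2 CPM). In the other direction, 8 of 8 endothelial markers were higher in D2 (16.3 to 44.5 in D1 against 72.0 to 343 CPM), with 8 of 8 oligodendrocyte markers (392 to 1048 against 448 to 1923), 7 of 8 astrocyte markers (267 to 719 against 288 to 680) and 5 of 8 microglia markers (26.4 to 80.6 against 28.6 to 76.2). Of 6 striosome markers 2 were higher in D1 and 1 in D2, with sums of 459 to 659.9 and 425 to 1174 CPM. None of these markers was at 0 in every library. Their part in the class differences of the opioid genes was not tested.

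Oprk1, the kappa receptor for dynorphin, was also higher in D1, by less. In D1 Control its libraries held 34.3, 38.5, 53.4, 50.7 and 47.1 CPM, in D1 Resilient 52.9, 45.2, 46.4, 41.6 and 43.2, and in D1 Susceptible 43.7, 53.0, 53.9, 38.8 and 35.7. In D2 Control they held 27.6, 28.7, 35.6, 26.8 and 33.2 CPM, in D2 Resilient 36.9, 34.3, 30.5, 36.3 and 43.0, and in D2 Susceptible 51.8, 46.1, 35.4, 35.8 and 37.7. The classes overlapped in every condition, with 4 of 5 D1 libraries above all D2 libraries in Control and in Resilient and 2 of 5 in Susceptible. The log2 difference over the conditions was 0.34 (SE 0.0768, edgeR adjusted p 0.00101), 1.27-fold. It was called in Control, at 0.56 (SE 0.133, adjusted p 0.00623), and not in Resilient, at 0.34 (SE 0.133, adjusted p 0.154), or Susceptible, at 0.12 (SE 0.133, adjusted p 0.538). The 95% interval of the Susceptible difference ran from -0.14 to 0.38. Without D2 Susceptible replicates 1 and 2, its 2 highest D2 libraries, that difference was 0.33 (adjusted p 0.119) and the Resilient one was 0.36 and called (adjusted p 0.0390).

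Oprd1, the delta receptor for enkephalin, was the only member higher in D2. In D1 Control its libraries held 9.19, 3.34, 3.26, 4.60 and 3.40 CPM, in D1 Resilient 3.99, 5.34, 4.49, 4.61 and 1.98, and in D1 Susceptible 8.02, 3.78, 5.67, 6.33 and 12.4. In D2 Control they held 13.7, 12.1, 10.1, 4.13 and 8.79 CPM, in D2 Resilient 9.44, 7.68, 11.3, 12.3 and 6.25, and in D2 Susceptible 3.56, 2.92, 15.9, 5.76 and 13.1. The classes did not overlap in Resilient and overlapped in the other conditions, most widely in Susceptible. Over the 3 conditions the log2 difference was -0.81 (SE 0.236, edgeR adjusted p 0.00978), so that D1 held 0.570 times the D2 level. As fitted by edgeR, no condition passed alone: the difference was -1.03 in Control (SE 0.409, adjusted p 0.129), -1.20 in Resilient (SE 0.411, adjusted p 0.0841) and -0.20 in Susceptible (SE 0.407, adjusted p 0.766). Voom with quality weights called all 3, at -1.41 in Control, -1.09 in Resilient and -1.08 in Susceptible. The Resilient difference was also called by DESeq2 (-1.22, adjusted p 0.0303), with only the groups compared (-1.22, edgeR adjusted p 0.00279), without D2 Susceptible replicates 1 and 2 (-1.18, adjusted p 0.0382) and without the 4 libraries (-1.32, adjusted p 0.0280). The Control difference was called without D1 Control replicate 1 (-1.41, edgeR adjusted p 0.0311). The 2 lowest D2 Susceptible libraries were again replicates 1 and 2, and without them the difference there was -0.66 (adjusted p 0.361).

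Oprm1, the mu receptor, had the lowest class means per kilobase, as given above. In D1 Control its libraries held 0.771, 0.971, 0.716, 0.425 and 0.971 CPM, in D1 Resilient 1.33, 1.20, 0.806, 0.635 and 0.406, and in D1 Susceptible 11.7, 0.361, 1.15, 1.03 and 3.65. In D2 Control they held 0.296, 0.416, 0.600, 0.493 and 0.860 CPM, in D2 Resilient 0.775, 0.620, 0.656, 0.853 and 0.563, and in D2 Susceptible 0, 3.28, 0.316, 0.413 and 0.485. All but 3 libraries lay at or below 1.33 CPM, and those 3 were Susceptible. The highest, D1 Susceptible replicate 1, is the library that Gm42418 dominates, with 115 Oprm1 counts, and D2 Susceptible replicate 2, at 181 counts, is one of the pair with few genes detected. D1 Susceptible replicate 5, at 3.65 CPM, had the next highest Gm42418 share, 5.46% of its gene counts beside a median of 0.53%. It is not among the 4 libraries left out together, so fits without those 4 still hold it. The log2 difference over the conditions was 0.94 (SE 0.446, edgeR adjusted p 0.115), with a 95% interval of 0.06 to 1.81. It was 1.46 and called without D2 Susceptible replicate 2 (adjusted p 0.00499), 0.54 and not called without D1 Susceptible replicate 1 (adjusted p 0.365), and 0.90 and called without all 4 libraries named above (adjusted p 0.0146). DESeq2 did not call it over the conditions (adjusted p 0.0817, beside 29.4% of all genes) and called the Susceptible difference, 1.96 (adjusted p 0.0319, beside 25.2%). The call therefore depended on single libraries.

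**Figure D4:**
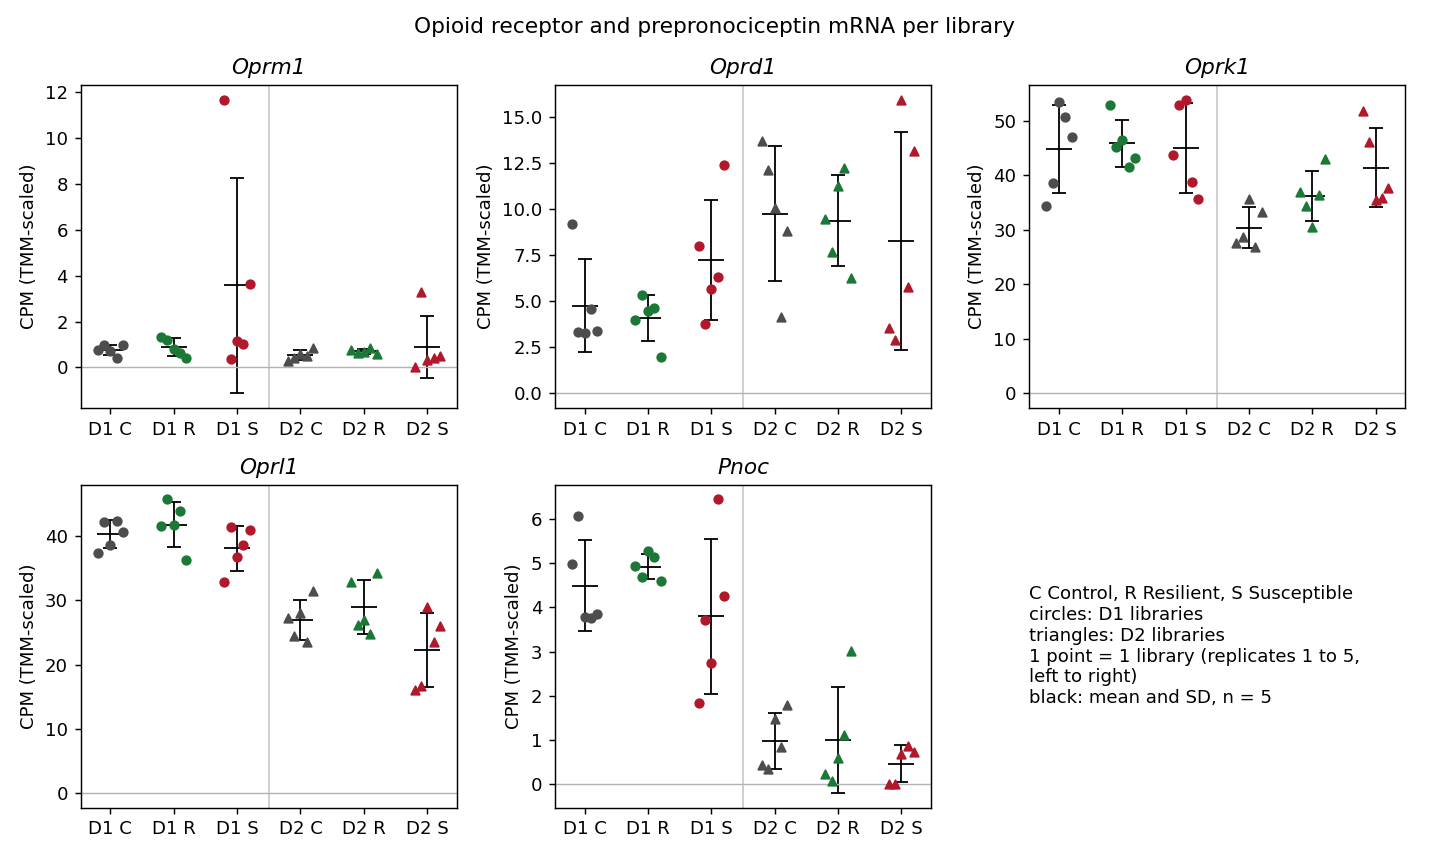
CPM of each gene in each library (points, replicates 1 to 5 from left to right), by group, with the mean and SD of 5 libraries in black. Oprl1 separates D1 (circles) from D2 (triangles) within each condition, and the 3 highest Oprm1 libraries, at 11.7, 3.65 and 3.28 CPM, are all Susceptible. Those at 11.7 and 3.65 CPM have the highest Gm42418 shares, 54.9% and 5.46%, and that at 3.28 CPM is of the pair with few genes detected.

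The classical precursors set the scale for these class differences. Pdyn was 578 ± 76.4 CPM (SD, n = 15) in D1 and 91.7 ± 115 in D2, which differed by 2.88 on the log2 scale (SE 0.339, edgeR adjusted p 3.58e-07), and Penk was 1489 ± 474 in D1 and 8780 ± 1819 in D2, a difference of -2.56 (SE 0.143, adjusted p 1.09e-13). The D1 and D2 ranges of both did not overlap over all 3 conditions, and both genes are also in the class marker lists. Pomc, the precursor of beta-endorphin, was 0.599 to 2.13 CPM in D1 and 0.516 to 2.31 in D2, with a difference of -0.31 (edgeR adjusted p 0.265).

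Genes that make, cut, couple or follow these receptors were counted by role, D1 against D2 over the 3 conditions. Of 10 genes for peptide processing and breakdown, 2 were higher in D1 and 3 in D2, beside 13.8% of all genes called higher and 15.5% lower, with a median log2 difference of -0.09. Pcsk1, a convertase that cuts precursors at basic pairs, differed by 0.80 (SE 0.0967, edgeR adjusted p 1.27e-07), and Ace, a peptidase that can cut enkephalins, by 0.94 (SE 0.298, adjusted p 0.0174). Anpep, an aminopeptidase that removes the first tyrosine of enkephalins, differed by -3.59 (SE 0.593, adjusted p 2.23e-05), with 0.203 ± 0.269 CPM in D1 and 2.06 ± 1.38 in D2. Endothelial markers, which moved the same way as Anpep, are given above, and their part in it was not tested. Mme, or neprilysin, and Ece1, an endothelin-converting enzyme, differed by -0.22 (adjusted p 0.0405) and -0.18 (adjusted p 0.0399), but only 7 and 5 of 30 fits that left out 1 library kept those calls.

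Of 17 G proteins and receptor regulators, 8 were higher in D1 and 3 in D2, with a median log2 difference of 0.12, beside the same 13.8% and 15.5% of all genes. The inhibitory subunit Gnai1 was 258 ± 30.3 CPM in D1 and 156 ± 29.7 in D2, a difference of 0.74 (SE 0.0657, edgeR adjusted p 2.85e-10). Its relatives Gnai2 and Gnao1 went the other way, by -0.23 (SE 0.0463, adjusted p 0.000329) and -0.19 (SE 0.0516, adjusted p 0.00475). The receptor kinase Grk3, which phosphorylates active receptors, differed by 0.79 (SE 0.0924, adjusted p 6.45e-08), and Gprasp1, a sorting protein that binds the delta receptor, by 0.31 (SE 0.0542, adjusted p 3.92e-05). Rtp4, a chaperone of mu and delta receptor pairs, was low, at 0.382 ± 0.286 CPM in D1 and 0.884 ± 0.435 in D2, and differed by -1.34 (SE 0.413, adjusted p 0.0142).

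Of 9 effectors, 7 were higher in D1 and 0 in D2, with a median log2 difference of 0.66, beside 13.8% of all genes called higher. Kcnj9 and Kcnj3, subunits of the potassium channels that Gi/o receptors open, both differed by 0.66 (SE 0.0539 and 0.0942, edgeR adjusted p 5.67e-11 and 2.34e-06). Adcy8, a calcium-stimulated adenylyl cyclase, was 8.10 ± 1.71 CPM in D1 and 3.09 ± 1.02 in D2, a difference of 1.40 (SE 0.146, adjusted p 7.04e-09). The interneuron and glutamatergic neuron markers, given above, were higher in D1 too, and their part in these effector differences was not tested.

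The second comparison set the stress groups against Control and against each other within each class. None of the 5 passed in any of the 6 stress comparisons, the 3 pairs of conditions within each class. The groups overlapped in all 30 member by comparison pairs. How many of all genes overlap in the same way was not counted, so this overlap says nothing particular about these genes. The share of all genes called was 0% in D1 Resilient against Control, D1 Susceptible against Control, D1 Susceptible against Resilient and D2 Resilient against Control, 0.00516% in D2 Susceptible against Control and 0.0516% in D2 Susceptible against Resilient, so a count of 0 among 5 stands beside few or no calls anywhere. At an unadjusted p under 0.05, edgeR gave 1 member in D1 Susceptible against Control, 1 in D1 Susceptible against Resilient, 2 where D2 Susceptible was set against Control, 1 where it was set against Resilient and 0 in the other comparisons. Of all 19368 genes, 465, 675, 3038 and 3693 passed that threshold in these 4 comparisons, 503 in D1 Resilient against Control and 814 in D2 Resilient against Control. DESeq2 called 1 member in D2 Susceptible against Control and 0 in the other 5 comparisons, and voom with quality weights called 0 in all 6, in which it called 0% to 0.893% of all genes (0.0774% in D1 Susceptible against Resilient). Of all genes DESeq2 called 0.0162% in D1 Resilient against Control, 0.0162% and 0.0659% for D1 Susceptible against Control and Resilient, 0.0551% for D2 Resilient against Control, and 5.24% for D2 Susceptible against Resilient. Comparisons with the same Control or Susceptible libraries share them and are not independent.

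Oprk1 came closest in D2 Susceptible against Control. Its mean was 41.4 ± 7.25 CPM (SD, n = 5) in D2 Susceptible and 30.4 ± 3.84 in D2 Control, with 4 of 5 Susceptible libraries above all Control libraries, and 36.2 ± 4.55 in D2 Resilient. The log2 difference was 0.44 (SE 0.133, edgeR adjusted p 0.159), with a 95% interval of 0.18 to 0.70. DESeq2 gave 0.47 and called it (adjusted p 0.0459), in a comparison where it called 1.66% of all genes. The 2 highest Susceptible libraries were replicates 1 and 2, and without both the difference was 0.25 (edgeR adjusted p 0.915), while without replicate 3 it was 0.49 and called (adjusted p 0.0421). In D1 the same comparison gave 0.01 (SE 0.133, adjusted p 1.00), with an interval of -0.25 to 0.27.

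Oprl1 came closest in D2 Susceptible against Resilient, in the other direction. Its mean was 22.2 ± 5.74 CPM in D2 Susceptible, 29.0 ± 4.25 in D2 Resilient and 26.9 ± 3.14 in D2 Control. The log2 difference from Resilient was -0.38 (SE 0.128, edgeR adjusted p 0.108), with an interval of -0.63 to -0.13, and it was called without D2 Susceptible replicate 3 (-0.50, adjusted p 0.0171) or replicate 5 (-0.45, adjusted p 0.0409). Without replicates 1 and 2, the lowest 2 libraries, it was -0.15 (adjusted p 1.00). The 2 libraries highest in Oprk1 and lowest in Oprl1 within D2 are thus the same, and they are those with few genes detected. They also held the highest summed striosome markers of the 30 libraries, 1174 and 1056 CPM against 425 to 659.9 in the other 28, and the highest summed oligodendrocyte markers, 1923 and 1494 CPM against 392 to 1427. The part of these properties in either value was not tested. The striosome sum rests mainly on Tshz1, Lypd1 and Khdrbs3, with D2 means of 251, 224 and 96.1 CPM. Values per marker in the 2 libraries are not given.

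The rarer genes gave wide intervals. Oprm1 differed by 2.17 in D1 Susceptible against Control (SE 0.794, edgeR adjusted p 1.00), with an interval of 0.61 to 3.73, and by 1.01 without D1 Susceptible replicate 1. Pnoc differed by -1.08 in D2 Susceptible against Control (SE 0.764, adjusted p 0.499) and by -1.10 against Resilient (SE 0.765, adjusted p 0.447), which was -0.09 without D2 Resilient replicate 5. In D1, Pnoc differed by -0.23 between Susceptible and Control (SE 0.726), with an interval of -1.65 to 1.19, so a 2-fold change either way lies within it. Oprd1 differed by 0.82 in D1 Susceptible against Resilient (SE 0.412, adjusted p 1.00) and by 0.60 against Control (SE 0.410), with 4 of 5 Susceptible libraries above every Resilient library. The highest of these were replicates 5 and 1, which also had the highest Gm42418 shares, 5.46% and 54.9%. The part of that in the Oprd1 difference was not tested. In D1, Oprl1 and Oprk1 were the best measured: all 6 of their stress differences lay between -0.13 and 0.05, and the widest bound of their intervals was -0.38.

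**Figure D5:**
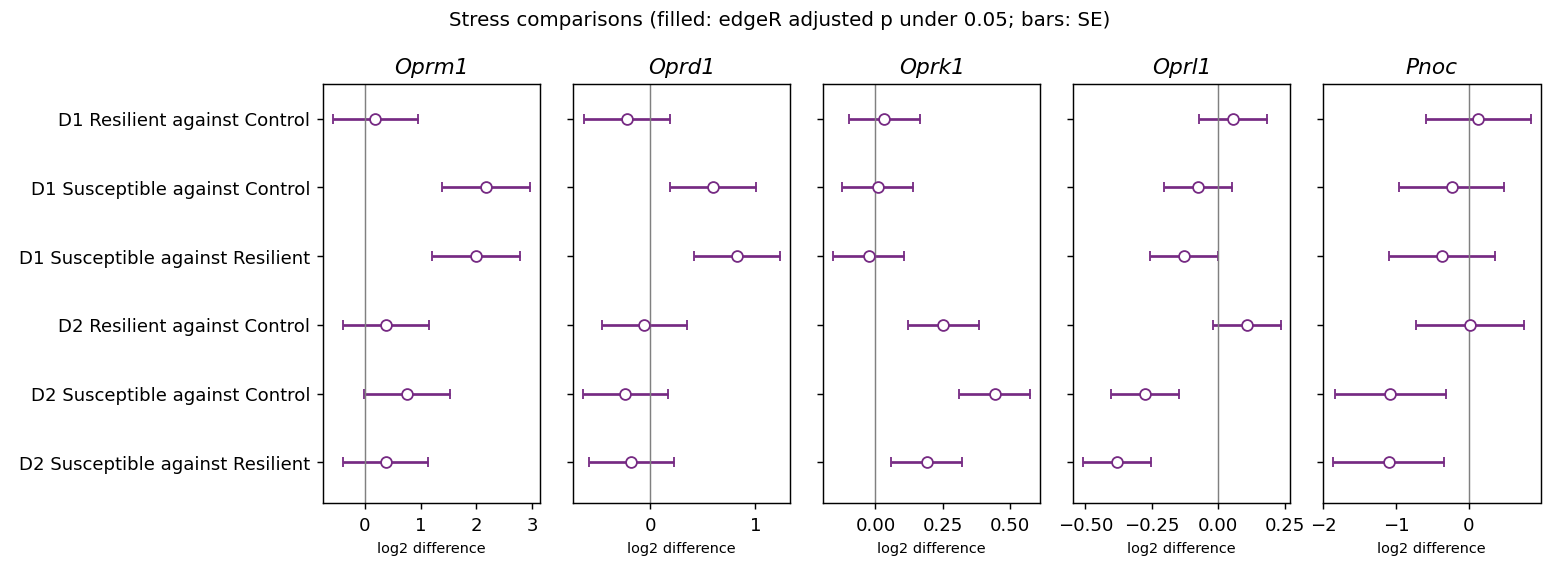
Log2 difference of each gene in the 6 stress comparisons, 3 in each class. Bars are standard errors, and a filled point would have an edgeR adjusted p under 0.05. No point is filled, and the bars of Oprm1 and Pnoc are several times wider than those of Oprk1 and Oprl1.

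The difference between the D1 and D2 changes was tested as an interaction for each pair of conditions, and 0 of 5 members passed in each (0% of all genes), by edgeR or by DESeq2, which called 0.0855%, 0.0572% and 0.341% of all genes for Resilient against Control, Susceptible against Control and Susceptible against Resilient. At an unadjusted p under 0.05 edgeR gave 1 member for Susceptible against Control and 0 for the other pairs, beside 1509 of 19368 genes for that pair, 967 for Resilient against Control and 2404 for Susceptible against Resilient. The lowest unadjusted p was that of Oprk1 for Susceptible against Control, where the D1 change minus the D2 change was -0.44 (SE 0.188, edgeR adjusted p 0.637) with an interval of -0.80 to -0.07. For Pnoc it was 0.85 (SE 1.05, adjusted p 0.822), so the Pnoc class difference, called in Susceptible and in neither of the others, is not shown to differ between conditions. The 39 genes of the pathway lists gave 0 calls by edgeR in the 6 stress comparisons and the 3 interactions. At an unadjusted p under 0.05, 9 of 39 passed between D2 Susceptible and D2 Control, 7 between D2 Susceptible and D2 Resilient and 0 to 5 in the rest, beside 3038 and 3693 of 19368 genes in the first pair of comparisons and 465 to 2404 in the rest.

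The genes whose library-to-library pattern most resembled each member's were taken by Pearson's r of log2 CPM after removal of group means, over 30 libraries and 10202 genes with a mean of at least 5 CPM. For Oprd1 they were Cdc42bpa (r = 0.88), Grik3 (0.86) and Trappc10 (0.85), and for Oprk1 Bag4 (0.86), Eif1ax (0.84) and Mef2a (0.83). Without the 4 libraries named above these were 0.86, 0.82 and 0.76 for Oprd1 and 0.85, 0.86 and 0.87 for Oprk1. Their ranks among all genes compared were then 3, 24 and 105 for Oprd1 and 21, 10 and 4 for Oprk1. Many genes had a high r with these members. Over 30 libraries r exceeded 0.7 for 370 genes with Oprd1 and 180 with Oprk1, and over 26 libraries for 280 and 488. For Pnoc they were Rab36 (0.89), Alg9 (0.87) and Spats2l (0.84), for Oprl1 Parn (0.87), Zfp212 (0.84) and Atxn10 (0.84), and for Oprm1 Clasp1 (0.85), Fbxl17 (0.82) and Usp10 (0.82). Without the 4 libraries these became 0.72, 0.77 and 0.50 for Pnoc, 0.69, 0.69 and 0.53 for Oprl1, and 0.50, 0.39 and 0.42 for Oprm1. The points share library depth and composition, and these values are descriptions. Among the members, the closest pair was Oprl1 and Pnoc, at 0.72 over 30 libraries and 0.08 over 26, and Oprd1 and Oprk1 went opposite ways, at -0.51 and -0.33.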

How the data were processed

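Ribosome-associated RNA was pulled down through the hemagglutinin tag and made into SMART-Seq v4 libraries, per the labels' protocols. The authors deposited whole-number read counts per gene. The submitters' processing notes name HISAT2, HTSeq, GRCm38 and mm10. Their versions, and whether counting used strand, were not given in the sources used here. The 5 summary lines of the count file of each library, 10.1% to 53.3% of reads, were kept out of library sizes and tests. Symbols and positions came from GENCODE M21, with 55154 identifiers matched and 181 not. No 2 replicates agreed within sampling noise.

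All 30 libraries, 6 groups of 5, entered 1 model in edgeR 4.0.16 (R 4.3.3) with TMM scaling, filterByExpr by group and the robust quasi-likelihood F test. It gave 13 comparisons, each adjusted by Benjamini-Hochberg over the 19368 genes tested, with 35967 genes set aside as low and a threshold of 0.05. The script was tested on simulated data. Alternatives were the DESeq2 1.42.0 Wald test, DESeq2 size factors, no filter, only the groups compared, a replicate block, voom with sample quality weights (limma 3.58.1), each library left out, and the 2 or 4 libraries that stood apart left out. Levels per length used merged exons, or the longest transcript as an alternative. The 95% intervals are normal approximations, with an SE taken from the F statistic, and are narrower than the F test implies. An interval that excludes 0 can therefore stand beside an unadjusted edgeR p over 0.05. Floors cover counting error only, since the reads carry no molecular identifiers.

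Besides the 5 members and 3 precursors, the genes named are, for each pathway list, at most 3 per direction, taken by lowest adjusted p between the classes, and the 3 genes most like each member. The members and lists were chosen with earlier results of these data known.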

Additional observations from a re-analysis of the deposited data

Results flagged for a closer look

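Of 30 groups of 5 libraries, 1 for each member and group, 2 had a library far from the other 4, where chance alone would mark about 1 group in 20. Oprm1 in D2 Susceptible replicate 2 was 3.28 CPM, and its distance to the next library was 0.852 of the range of the group, against a critical value of 0.71. Oprd1 in D1 Control replicate 1 was 9.19 CPM, with a distance of 0.774 of the range. Without that library the Oprd1 class difference in Control was -1.41 and called (edgeR adjusted p 0.0311).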

How the results depend on the processing

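Class differences over the 3 conditions kept their calls for Oprl1, Pnoc, Oprk1 and Oprd1 in all 30 fits that left out 1 library, and 4 to 5 members were called. With DESeq2 size factors or no filter on low counts, all 65 member results kept direction and call. Replicate numbers did not pair the libraries: in 75 same-numbered pairs of different groups the median correlation of deviations was 9.7e-05, and 0 exceeded 0.1. With the replicate block 2 Resilient members were called in place of 1, Pnoc in D2 Resilient against Control was -0.26, and the Control and Resilient class differences of Pnoc became called (2.67 and 2.94).

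Members called in the Control class comparison numbered 4 with voom weights and 2 to 3 with 1 library left out. Of all genes, voom called 28.4% in Control, 17.6% in Resilient and 17.0% in Susceptible. The edgeR fit of all 6 groups called 8.30%, 6.65% and 23.9%. Shares of all genes are not given for fits that left out 1 library, so the member counts of those fits are descriptions only. In Resilient they numbered 3 with DESeq2, 3 with only the groups compared, 4 with voom weights, 4 without D2 Susceptible replicates 1 and 2, 4 without the 4 libraries that stood apart, and 1 to 2 with 1 library left out. In Susceptible they numbered 1 with only the groups compared, 4 with voom weights and 2 to 3 with 1 library left out. In D2 Susceptible against Control they numbered 1 with DESeq2 and 0 to 1 with 1 library left out, and in D2 Susceptible against Resilient 0 to 1. With only the groups compared, edgeR called 2696 genes of the whole table in Control, 2184 in Resilient and 915 in Susceptible, where all 6 groups in 1 fit gave 1608, 1288 and 4621. The cause was not tested.

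Newly called class differences were, in Control, Pnoc by DESeq2 (2.21), with only the groups compared (2.20), with voom (2.63), without the 2 libraries (2.22) and without the 4 (2.20), and Oprd1 with voom (-1.41). In Resilient they were Pnoc by DESeq2 (2.31), with voom (4.02), without the 2 (2.34) and without the 4 (3.31), Oprd1 by DESeq2 (-1.22), with only the groups compared (-1.22), with voom (-1.09), without the 2 (-1.18) and without the 4 (-1.32), and Oprk1 with only the groups compared (0.33), with voom (0.41), without the 2 (0.36) and without the 4 (0.40). In Susceptible they were Oprm1 by DESeq2 (1.96), without the 2 (3.08) and without the 4 (1.94), and Oprk1 (0.42) and Oprd1 (-1.08) with voom. Over the conditions Oprm1 was called without the 2 (1.32) and without the 4 (0.90). Pnoc in Susceptible lost its call with only the groups compared (3.07). Oprk1 in D2 Susceptible against Control was called by DESeq2 (0.47).

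Direction turned only in differences that were not called. With voom weights these were, in D1 Resilient against Control, Oprk1 (-0.048) and Oprd1 (0.069), in D1 Susceptible against Resilient, Oprk1 (0.10), in D2 Resilient against Control, Pnoc (-1.12), in D2 Susceptible against Control, Oprm1 (-0.14) and Oprd1 (0.071), and in D2 Susceptible against Resilient, Oprm1 (-0.67), Pnoc (1.09) and Oprd1 (0.32). Among interactions they were Oprd1 for Resilient against Control (0.32), Oprl1 (-0.046) and Pnoc (-0.24) for Susceptible against Control, and Oprk1 (0.0091), Oprl1 (-0.042) and Pnoc (-1.63) for Susceptible against Resilient. Without D2 Susceptible replicates 1 and 2, Oprm1 (-0.40) and Oprd1 (0.24) turned against Control, Oprm1 (-0.78) and Oprd1 (0.30) against Resilient, and the Oprl1 interaction for Susceptible against Control was -0.023. Without the 4 libraries, Pnoc (-0.98) and Oprd1 (0.066) turned in D2 Resilient against Control, Oprm1 (-0.40) and Oprd1 (0.25) in D2 Susceptible against Control, Oprm1 (-0.85), Pnoc (0.60) and Oprd1 (0.18) in D2 Susceptible against Resilient, and the interactions of Oprl1 for Resilient against Control (0.019) and Pnoc for Susceptible against Resilient (-0.81).

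With 1 library left out, Oprk1 ran from -0.043 to 0.11 in D1 Resilient against Control, from -0.067 to 0.085 in D1 Susceptible against Control and from -0.098 to 0.047 in D1 Susceptible against Resilient. Oprm1 ran from -0.012 to 0.37 in D1 Resilient against Control, from -0.80 to 1.06 in D2 Susceptible against Control and from -1.17 to 0.69 in D2 Susceptible against Resilient. Oprd1 ran from -0.47 to 0.21 between the classes in Susceptible, from -0.34 to 0.17 in D1 Resilient against Control, from -0.25 to 0.095 in D2 Resilient against Control and from -0.56 to 0.032 in D2 Susceptible against Resilient. Pnoc ran from -0.99 to 0.37 in D2 Resilient against Control. Interactions for Resilient against Control ran from -0.11 to 0.022 for Oprl1, from -0.24 to 1.13 for Pnoc and from -0.32 to 0.23 for Oprd1, and that of Pnoc for Susceptible against Resilient from -0.27 to 1.10.

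With the longest transcript as the length, Oprm1 was 0.719 CPM per kb in D1 and 0.293 in D2, Oprk1 9.67 and 7.70, and Oprl1 12.9 and 8.40. The low counts of Oprm1 and of Pnoc in D2 limit what these libraries can show.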
